A study of Mus musculus with 4 samples.

Results

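The genes described here encode the Wnt ligands other than Wnt4, the Frizzled and Lrp receptors, the secreted antagonists of the Sfrp and Dkk families, the R-spondins other than Rspo1, and the Dishevelled proteins. Members were picked by a pattern of gene symbols that leaves out Wnt4 and Rspo1, and no threshold on a measured value entered the rule. The set was, however, chosen with earlier results of these data known. The platform carried 42 such genes on 43 probes, out of 12817 named genes, and 30 of the 42 had values on all 4 arrays, out of 9757 named genes that did. By role, values on all 4 arrays were present for 12 of 17 Wnt ligands, 9 of 11 Frizzled and Lrp receptors, 4 of 5 genes of the Sfrp family with Frzb, 2 of 4 Dkk genes, 0 of 2 R-spondins and 3 of 3 Dishevelled genes.

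Total RNA of mouse fetal gonads, taken at 12.0 days post coitum and freed of the mesonephros, was profiled on spotted oligonucleotide arrays with 2 colours. On 2 arrays RNA of XY Wnt4 +/+ gonads was set against RNA of XX Wnt4 +/+ gonads, and on the other 2 arrays RNA of XX Wnt4 -/- gonads, which lack the secreted signal Wnt4, was set against RNA of XX Wnt4 +/+ gonads. The dyes were swapped within each pair: the XY or Wnt4 -/- RNA carried Cy5 on replicate 1 and Cy3 on replicate 2. The study's title places the question in the blood vessels of the developing testis. Each genotype was a pool of gonads from more than 100 embryos, combined in several groups, and no strain is named in the labels. Nor do they tell whether both arrays of a pair came from 1 RNA extract or from several. Each p-value thus rests on differences between arrays that may be technical only. XX wild type RNA was the common reference of both comparisons, so its own spread is not measured.

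A value is the log2 ratio of a gene over XX wild type on an array centred on its median, and errors are SD over n = 2 arrays. The direction of the ratios is likely but not settled, because no label names the numerator. As deposited, the replicate 1 arrays of the 2 comparisons (test RNA in Cy5) correlated at -0.62 over 12264 spots, and the replicate 2 arrays (test RNA in Cy3) at 0.68. XY replicate 1 was turned in sign, on the basis of Xist (1.67 and -1.22 as deposited on XY replicates 1 and 2) and of 1 of 2 probes of the Y-linked gene Eif2s3y (-2.22 and 2.25). The other Eif2s3y probe had -0.64 and -0.46 and does not bear the turn out, and the first read 1.53 on mutant replicate 1, where both RNAs are XX. Genes were tested with limma over 11579 rows, first without a dye term and then with a term for the dye shared by the 4 arrays. The p-values were adjusted by Benjamini-Hochberg over all rows. Without the dye term 2 residual degrees of freedom were left per row, and with it 1. With the dye term the spread is how far the gap between replicates differed between the comparisons, not the gap itself. A rule of size counted genes that were at least 1.5-fold away from XX wild type in the same direction on both arrays, which is 0.585 on the log2 scale. Between 12866 and 14533 of 17664 spots had a value on an array. Precision is limited by having 2 arrays per comparison.

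Wnt ligands are secreted, lipid-modified proteins that bind Frizzled receptors, and with the co-receptors Lrp5 and Lrp6 they recruit Dishevelled and stabilise beta-catenin, which acts on target genes through TCF/LEF factors. Secreted Frizzled-related proteins bind the ligands, Dkk proteins occupy the Lrp co-receptors, and R-spondins keep Frizzled receptors at the cell surface. In the fetal mouse gonad, Wnt4 and Rspo1 act on the ovarian side of sex determination. On these arrays Wnt4 had log2 ratios of -1.08 and -1.73 in XY gonads and of -0.08 and -0.18 in Wnt4 -/- gonads. The sources used here do not place the Wnt4 probe relative to the deleted part, so the near-zero ratio in the mutant checks nothing. Rspo1 had -2.36 and -1.50 in XY gonads, and -0.65 and 0.86 in the mutant. Both of these genes, left out of the set, passed the rule of size in XY gonads. Both were also called lower there in limma with the dye term (adjusted p 0.0246 for Wnt4 and 0.0197 for Rspo1). Neither was called in limma without it (0.271 and 0.472).

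In XY gonads, 1 of the 30 measured genes passed a test: the receptor gene Fzd9 was higher than in XX gonads in limma with the dye term. No member of the set passed in Wnt4 -/- gonads, and the receptor gene Fzd5 was the 1 member past the rule of size there. In limma without the dye term, 0 of the 30 genes passed in either comparison, as did 0 of 11579 rows (0.0%). At an unadjusted p under 0.05 in that fit, 2 members (Fzd9 and Wnt10b) stood in the XY comparison, against 5.74% of all rows, and 1 member (Sfrp2) in the Wnt4 -/- comparison, against 2.86%. With the dye term, the share of all rows called was 2.79% in the XY comparison (1.39% higher and 1.4% lower) and 0.207% in the Wnt4 -/- comparison (0.138% higher and 0.0691% lower). The 1 gene of 30 called in XY gonads is near the background of that fit. Before adjustment, 8 of 30 members were under a p of 0.05 with that term in XY gonads, against 18.9% of all rows, and 5 of 30 in the mutant, against 11.8%. Means of the 30 genes ran from -0.34 to 0.89 in XY gonads, around a median of -0.0016, and from -0.59 to 0.81 in Wnt4 -/- gonads, around a median of 0.037. The medians over all rows were 0.0030 and 0.0024.

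**Figure D1:**
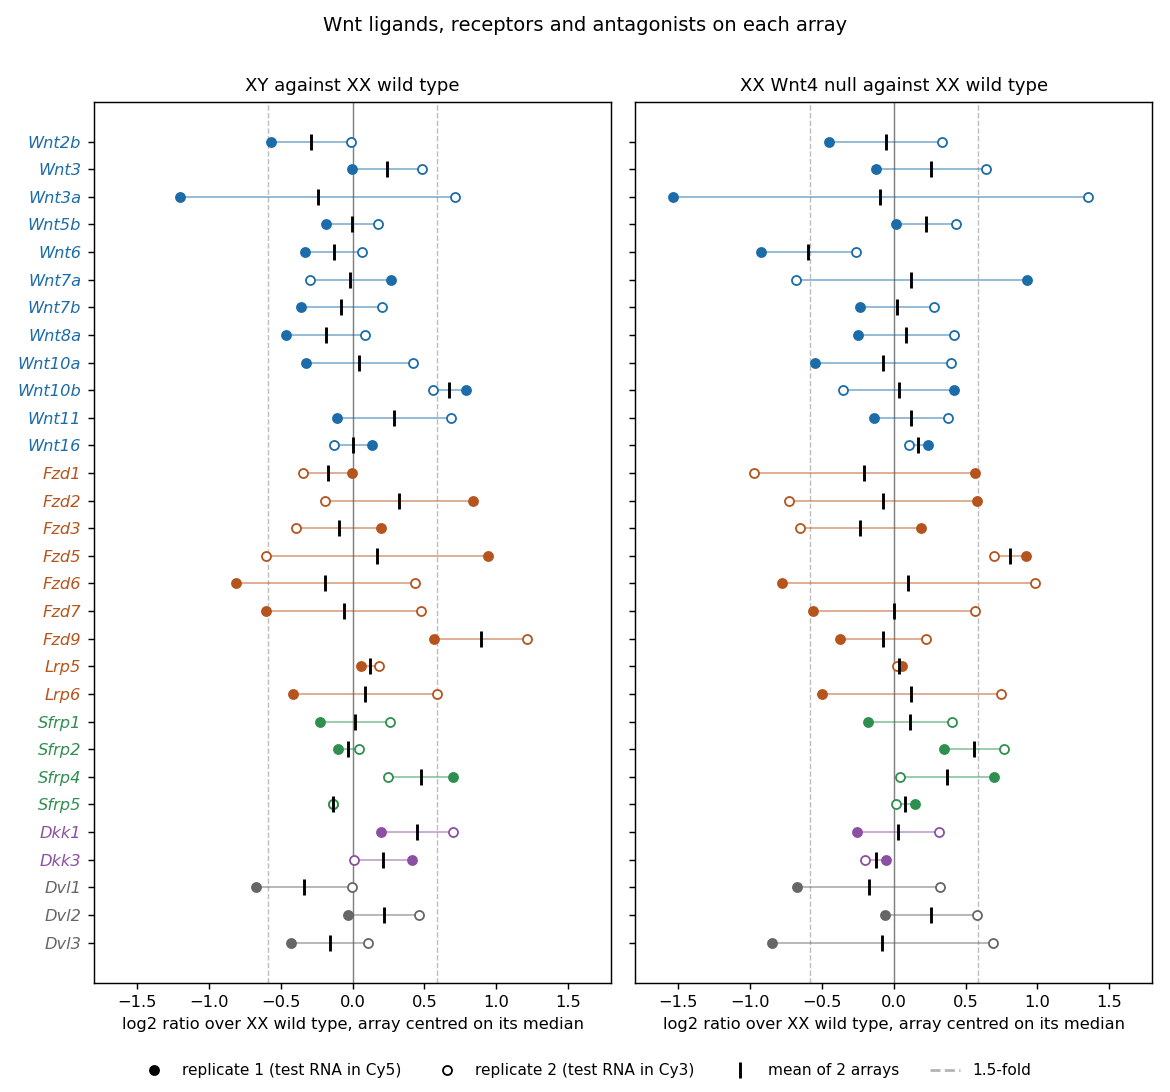
Log2 ratio over XX wild type (horizontal axis) of each of the 30 genes measured on all 4 arrays, grouped by role, with 1 point per array and the XY and Wnt4 -/- comparisons marked apart. Fzd9 lies above 0 on both XY arrays, at 0.57 and 1.21, while Wnt3a runs from -1.54 to 1.35 across the arrays.

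Fzd9, a Frizzled receptor for Wnt ligands, had log2 ratios of 0.57 and 1.21 in XY gonads and of -0.37 and 0.22 in Wnt4 -/- gonads. Both XY values lay above both mutant values, and the lower XY value fell just short of the limit of 0.585. The share of all rows with such a separation was not counted. The XY mean was 0.89 ± 0.46 (SD, n = 2), or 1.86-fold. Its adjusted p in limma was 0.0290 with the dye term (SE 0.0897) and 0.662 without it. That SE leaves out the gap between replicates that both comparisons share. XY minus mutant was 0.94 on replicates 1 and 0.99 on replicates 2. Over 5 settings with the dye term and these directions the adjusted p of limma ran from 0.00292 to 0.0294. Over 3 settings with the dye term and other directions of the ratios it ran from 0.441 to 0.9996. Reading all arrays as Cy3 over Cy5, 1 of these 3, keeps both XY values and turns only mutant replicate 1. The adjusted p in limma was then 0.441 at the same XY mean of 0.89. The call thus also rests on the direction of the mutant pair, which is not settled. Of these settings only the plain dye term was planned, and the others were chosen after seeing the data. No setting without the dye term gave Fzd9 an adjusted p under 0.05 in limma. In the mutant the mean was -0.07 ± 0.42, with an adjusted p of 0.831 in limma with the dye term and a 95% interval of -0.32 to 0.17. Its promoter window in RefSeq, 250 bases before to 50 after the start of the transcript, lies at chr5:135250998-135251297 of GRCm38.p6 on the minus strand. It is shown because Fzd9 is the 1 gene of the set that passed a test; capitals would mark the TCF/LEF core CTTTGA or its reverse TCAAAG, and it holds 0 of them.
Fzd9: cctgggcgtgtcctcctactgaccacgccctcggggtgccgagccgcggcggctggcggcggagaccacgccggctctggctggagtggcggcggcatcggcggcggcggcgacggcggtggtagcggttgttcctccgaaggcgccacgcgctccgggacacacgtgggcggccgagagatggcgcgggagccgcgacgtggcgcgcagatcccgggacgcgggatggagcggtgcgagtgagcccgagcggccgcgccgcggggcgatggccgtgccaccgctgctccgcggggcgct

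The window is 78% G and C and has 53 CpG dinucleotides, against medians of 66.5% and 25 over the 30 windows of the 27 genes of the set that had one, and of 52.7% and 7 over 32851 windows of all genes. The 3 genes whose ratios on the 4 arrays lay nearest to those of Fzd9, by Euclidean distance over log2 values, were Cited1 (0.355), Shbg (0.356) and Bex2 (0.371).

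Fzd5, another Frizzled receptor, had log2 ratios of 0.92 and 0.69 in Wnt4 -/- gonads and of 0.95 and -0.60 in XY gonads. Both mutant arrays stood above 0, while the XY arrays had opposite signs. The mutant mean was 0.81 ± 0.16, or 1.749-fold, and the adjusted p was 0.337 in limma with the dye term and 0.99996 without it, so the difference passed the rule of size and neither test. Among all rows, 1.07% passed that rule in the Wnt4 -/- comparison and 0.553% passed it as higher. Fzd5 is shown beside Fzd9 as the receptor past the rule of size, with its window at chr1:64737701-64738000 of GRCm38.p6 on the minus strand, which holds 0 of the same motifs and is 75.7% G and C.
Fzd5: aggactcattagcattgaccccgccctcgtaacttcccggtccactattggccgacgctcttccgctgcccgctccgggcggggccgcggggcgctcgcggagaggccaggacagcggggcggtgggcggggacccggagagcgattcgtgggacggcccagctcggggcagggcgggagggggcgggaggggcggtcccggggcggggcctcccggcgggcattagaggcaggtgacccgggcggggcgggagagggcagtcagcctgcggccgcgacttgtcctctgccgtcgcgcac

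The means of the other receptors were closer to 0, and their arrays mostly differed in sign. Fzd2 had 0.84 and -0.19 in XY gonads and 0.58 and -0.73 in the mutant. Fzd1 had -0.0029 and -0.35 in XY gonads and 0.56 and -0.97 in the mutant, and Fzd3 had 0.20 and -0.40, then 0.19 and -0.65. These 3 receptors were higher on the Cy5 array than on the Cy3 array of each pair. Fzd6, known with Fzd3 for planar cell polarity, and Fzd7 ran the other way. Fzd6 had -0.81 and 0.43 in XY gonads and -0.78 and 0.98 in the mutant. Fzd7 had -0.60 and 0.48, then -0.56 and 0.57. The co-receptor Lrp6 showed the same order, with -0.41 and 0.59 in XY gonads and -0.50 and 0.75 in the mutant. Lrp5, its close relative, stayed between 0.02 and 0.18 on the 4 arrays, with a mean of 0.12 ± 0.086 in XY gonads (adjusted p 0.571 in limma with the dye term). Fzd4 had values on 3 arrays, 0.16 on XY replicate 2 and 0.65 and -0.15 in the mutant, and Fzd8 had none. The medians of the 9 receptor means were 0.088 in XY and 0.0020 in mutant gonads.

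Among the 12 ligands measured on all 4 arrays, 0 passed a limma test in either comparison, with or without the dye term. Wnt10b, a ligand of the beta-catenin pathway, had 0.79 and 0.56 in XY gonads and 0.42 and -0.35 in the mutant. Both XY values lay above both mutant values, a separation whose share of all rows was not counted. Its XY mean was 0.67 ± 0.16, or 1.59-fold, with an adjusted p of 0.0924 in limma with the dye term and of 0.828 without it; the 95% intervals were 0.33 to 1.02 and 0.03 to 1.32. Its lower XY value missed the limit of 0.585. Wnt6 had -0.93 and -0.26 in the mutant and -0.33 and 0.07 in XY gonads. The mutant mean of Wnt6 was -0.59 ± 0.47, or 1.51-fold lower, the lowest of the 30 means in that comparison, with an adjusted p of 0.163 in limma with the dye term and of 0.99996 without it. Wnt6 and its genomic neighbour Wnt10a did not share this value, since Wnt10a had -0.55 and 0.40 in the mutant, a mean of -0.08 ± 0.67.

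Wnt3a, which signals through beta-catenin, had the widest gap between arrays of the 30 genes, with -1.20 and 0.71 in XY gonads and -1.54 and 1.35 in the mutant. Its means were -0.24 ± 1.35 and -0.09 ± 2.04. Wnt7a had the reverse order, with 0.27 and -0.30 in XY gonads and 0.92 and -0.68 in the mutant. Wnt2b was below 0 on both XY arrays (-0.56 and -0.014) and had -0.45 and 0.34 in the mutant. Wnt11, known for signalling outside the beta-catenin arm, had -0.11 and 0.69 in XY gonads and -0.13 and 0.38 in the mutant. Wnt3 had -0.0032 and 0.48, then -0.12 and 0.64. Wnt5b, Wnt7b, Wnt8a and Wnt16 had means between -0.19 and 0.0026 in XY gonads, and between 0.02 and 0.22 in the mutant. The medians of the 12 ligand means were -0.011 and 0.061. Ligands measured on fewer arrays gave no comparison across all 4: Wnt1 had 0.10 and -0.02 in the mutant, Wnt5a had -0.66 and 0.52 there, and Wnt9b had -0.16 on XY replicate 2 and 0.39 on mutant replicate 2.

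Of the secreted Frizzled-related proteins, Sfrp4 stood above 0 on all 4 arrays, and Sfrp2 did so on both mutant arrays. Sfrp4 had 0.70 and 0.25 in XY gonads and 0.70 and 0.04 in the mutant, means of 0.47 ± 0.32 and 0.37 ± 0.46. Its adjusted p was 0.103 and 0.292 in limma with the dye term. Sfrp2 had 0.35 and 0.77 in the mutant and -0.10 and 0.04 in XY gonads. The mutant mean of Sfrp2 was 0.56 ± 0.29, or 1.47-fold, with an adjusted p of 0.182 in limma with the dye term and of 0.99996 without it. Sfrp5 had -0.14 on both XY arrays and 0.15 and 0.014 in the mutant. For Sfrp2 and Sfrp5 the mutant values lay above the XY values, but the share of all rows with such a separation was not counted. Sfrp1 was read by a pair of probes that disagreed: one had -0.44 and 0.50 in XY gonads and -0.60 and 0.37 in the mutant, and the other had -0.02 and 0.03, then 0.25 and 0.43. Frzb, a further antagonist of this family, had 0.59 on XY replicate 2 and -0.79 and 1.56 in the mutant. The medians of the 4 complete genes were -0.0062 in XY gonads and 0.24 in the mutant.

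Stromal markers had means above XX wild type in the same pools. All 5 markers of the list were measured, with a median of 0.36 in XY gonads and of 0.66 in the mutant. All 5 means were above 0 in both, though Col1a1 had opposite signs on the mutant arrays (-0.08 and 0.89). In limma with the dye term 2 of the 5 were higher in XY gonads, against 1.39% of all rows, and 0 in the mutant, against 0.138%. The marker lists were chosen with earlier results of these data known, so their counts are a description and not a test. By the rule of size 1 of the 5 was higher in the mutant, Tcf21, with 1.15 and 1.27, against 0.553% of all rows. Macrophage markers, with 3 of 4 measured, had medians of -0.031 and 0.50. Endothelial markers, with 3 of 5 measured, had medians of 0.057 and 0.10. The part of these cells in the ratios of the Wnt genes was not tested. In pooled tissue a change in the number of cells of a type cannot be told apart from a change in RNA per cell.

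Dkk1, which binds the Lrp co-receptors, had 0.20 and 0.70 in XY gonads and -0.25 and 0.32 in the mutant. The ranges of the groups overlapped. Its XY mean was 0.45 ± 0.36, with an adjusted p of 0.101 in limma with the dye term and of 0.9997 without it. Dkk3, a divergent member of the family, had 0.42 and 0.010 in XY gonads and -0.05 and -0.20 in the mutant. Its XY values thus lay above its mutant values, a separation whose share of all rows was not counted. The means were 0.21 ± 0.29 and -0.13 ± 0.10, and the mutant value had an adjusted p of 0.702 in limma with the dye term. Dkk2 had 0.11 on XY replicate 2 and 0.53 and 0.13 in the mutant, and Dkk4 had no value. The window of Dkk1 at chr19:30549447-30549746 of GRCm38.p6, minus strand, is shown because Dkk1 is known as a target of the beta-catenin pathway and because it holds 2 matches of the TCF/LEF core, in capitals.
Dkk1: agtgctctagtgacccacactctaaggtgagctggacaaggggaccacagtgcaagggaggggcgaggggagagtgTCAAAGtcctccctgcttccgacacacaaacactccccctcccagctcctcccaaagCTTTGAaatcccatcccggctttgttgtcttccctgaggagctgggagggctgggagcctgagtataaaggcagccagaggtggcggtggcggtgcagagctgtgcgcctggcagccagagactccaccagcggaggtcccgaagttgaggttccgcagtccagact

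The matches begin 174 and 117 bases before the start, the first on the opposite strand. The core CTTTGA, on either strand, was in the windows of 5 genes of the set (Dkk1, Frzb, Fzd1, Wnt11 and Wnt5b), or 5 of 30 windows. It was in 16% of 32851 windows of all genes. Windows on chromosome 18 were left out of the 30. The motif AAGGTCA, which the gonadal factor NR5A1 binds, or its reverse TGACCTT was in 0 of 30 windows of the set and in 4.72% of all windows. A match is a run of letters and not evidence of binding.

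R-spondins other than Rspo1 gave little: Rspo2 had 0.01 on XY replicate 2 and 0.03 and 0.66 in the mutant, and Rspo4 had no value. The Dishevelled genes, which encode the proteins that act below Frizzled in the cell, had XY means of -0.34 ± 0.48 for Dvl1, 0.22 ± 0.35 for Dvl2 and -0.16 ± 0.38 for Dvl3. Dvl1 had -0.67 and -0.00057 in XY gonads and -0.67 and 0.32 in the mutant. Dvl2 had -0.03 and 0.46, then -0.06 and 0.58, a mutant mean of 0.26 ± 0.45 with an adjusted p of 0.407 in limma with the dye term. Dvl3 had -0.43 and 0.11, then -0.85 and 0.69. All 3 genes were lower on replicate 1 than on replicate 2 of each pair, and 0 of 3 passed limma with the dye term, where the adjusted p was 0.204, 0.322 and 0.737 in XY gonads.

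For many of these genes, as for many of all rows, the arrays of a pair had opposite signs, in step with the dye. Dye and replicate number changed together in both comparisons, so their parts cannot be told apart. Opposite signs on replicates 1 and 2 in both comparisons were seen in 15 of 30 genes, near the share of 44.8% of all rows. Of the 30 genes, 12 were below 0 on replicate 1 and above 0 on replicate 2 in both comparisons, against 21.3% of all rows, and 3 of the 30 (Fzd2, Fzd3 and Wnt7a) ran the reverse way, against 20.8%. The median size of the part shared with the dye was 0.31 for the 30 genes and 0.17 for all rows. The same sign on both XY arrays was seen in 10 of 30 genes, against 43.7% of all rows, and the same sign on both mutant arrays in 9 of 30, against 31.4%. Past 1.5-fold in the same direction on both XY arrays were 0 members, against 2.78% of all rows, while Fzd5 and Wnt3a passed it in opposite directions, against 1.77%. In the mutant, Dvl3, Fzd6, Wnt3a and Wnt7a passed it in opposite directions, against 5.65% of all rows. With the limit lowered to 0.322 on the log2 scale, Fzd9 and Wnt10b passed in XY gonads (2 of 30, against 7.15% of all rows) and Fzd5 and Sfrp2 in the mutant (2 of 30, against 3.08%). At 2-fold 0 of 30 passed in either, against 0.976% and 0.233%. How the authors normalized the arrays is not stated in the labels, and the part of the dye in single values was not tested.

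**Figure D2:**
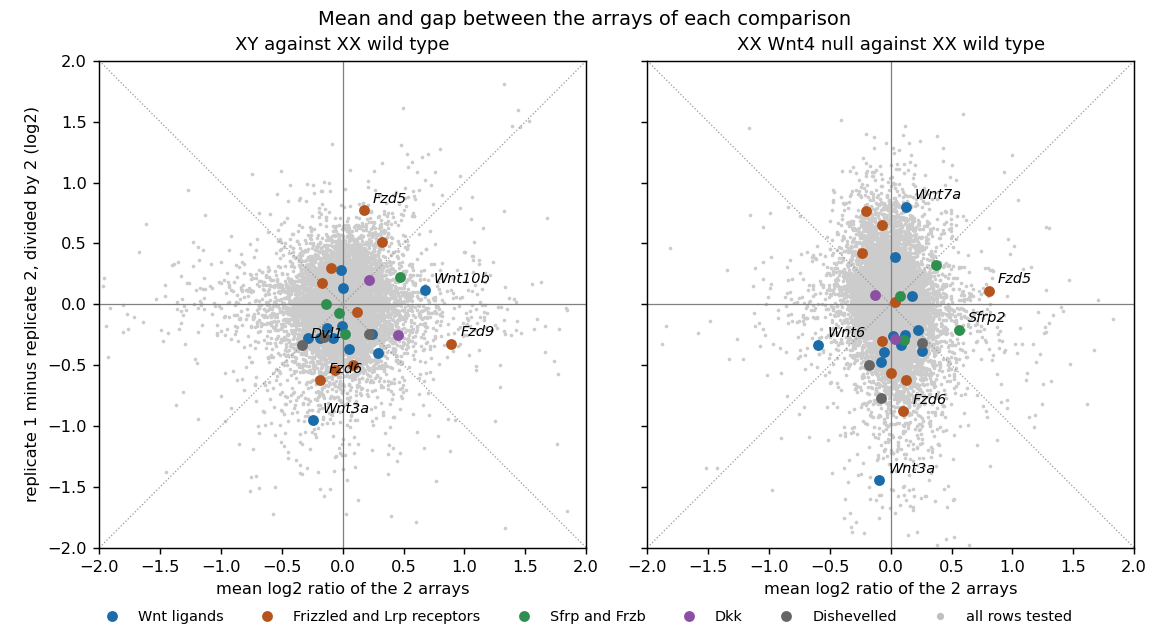
Mean log2 ratio over XX wild type (horizontal axis) against the gap between the arrays, as (replicate 1 minus replicate 2) over 2 (vertical axis), for the 30 genes (coloured by role) and all rows tested (grey) in the XY and the Wnt4 -/- comparison; on the dotted diagonals gap and mean are equal in size. The gap exceeds the mean in size for 20 of 30 genes in the XY comparison and for 21 of 30 in the Wnt4 -/- comparison, against 6511 and 7945 of 11579 rows.

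Read as Cy3 over Cy5 on both mutant arrays, which changes the sign of mutant replicate 1, the means of the mutant comparison change: Wnt3a stood at 1.45 ± 0.13 and Fzd6 at 0.88 ± 0.14, Dvl3 at 0.77 and Wnt7a at -0.80, while Fzd5 stood at -0.11 ± 1.14. Under that reading 4 genes pass the rule of size, against 654 of 11579 rows (5.65%). Limma with the dye term calls 0 of the 30 genes and 0 rows there. The genes with the largest means thus differ between the readings. The ovary markers Fst (-3.02 and -2.21) and Irx3 (-2.67 and -2.70) have the same sign on both mutant arrays in the direction used here, and opposite signs under that reading. The testis markers Sox9 (0.27 and -0.21), Amh (0.23 and -0.33) and Cst9 (1.09 and -0.14) have opposite signs on the mutant arrays in the direction used here, and would share a sign under the other. Over 12264 spots the mutant arrays correlated at -0.46 in the direction used here. The replicate 1 arrays of the 2 comparisons correlated at 0.62 in that direction and at -0.62 under the other reading. The replicate 2 arrays correlated at 0.68 in both. No label names the numerator, so the direction of the mutant pair is likely but not settled.

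XY gonads and Wnt4 -/- gonads were also compared with each other within each dye orientation, where the RNA of each kind carried the same dye. Both share the XX reference. Of the 30 genes, 22 had the same sign in both dye-matched differences, against 55.0% of all rows. Fzd9 was higher in XY gonads by 0.94 and 0.99, a mean of 0.97 ± 0.035 or 1.95-fold, and was the 1 gene of the set past 1.5-fold in both differences, against 1.66% of all rows. Its adjusted p was 0.261 in limma with the dye term and 0.99998 without it. How far the 2 differences of a gene lie apart is also its own spread in the fit with the dye term. Their closeness for Fzd9 is thus no further support for its call in XY gonads. Lower past 1.5-fold in both differences were 0 genes, against 0.82% of all rows, and opposite in direction were 0, against 0.51%. Wnt10b differed by 0.37 and 0.91 (mean 0.64 ± 0.38) and Wnt6 by 0.59 and 0.33 (mean 0.46 ± 0.19). With the limit at 0.322 on the log2 scale 5 genes passed in both differences (Dkk1, Fzd9, Sfrp2, Wnt10b and Wnt6), against 6.92% of all rows, and at 2-fold 0 passed, against 0.44%. Sfrp2 ran the other way, with -0.45 and -0.73 (mean -0.59 ± 0.19). In limma, 0 of 11579 rows passed for this difference in either fit, and 1038 rows (8.96%) were under 0.05 before adjustment with the dye term, among them 6 of 30 members (Dkk1, Fzd2, Fzd9, Sfrp2, Wnt10b and Wnt6), and 189 (1.63%) without it, among them 0 members.

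**Figure D3:**
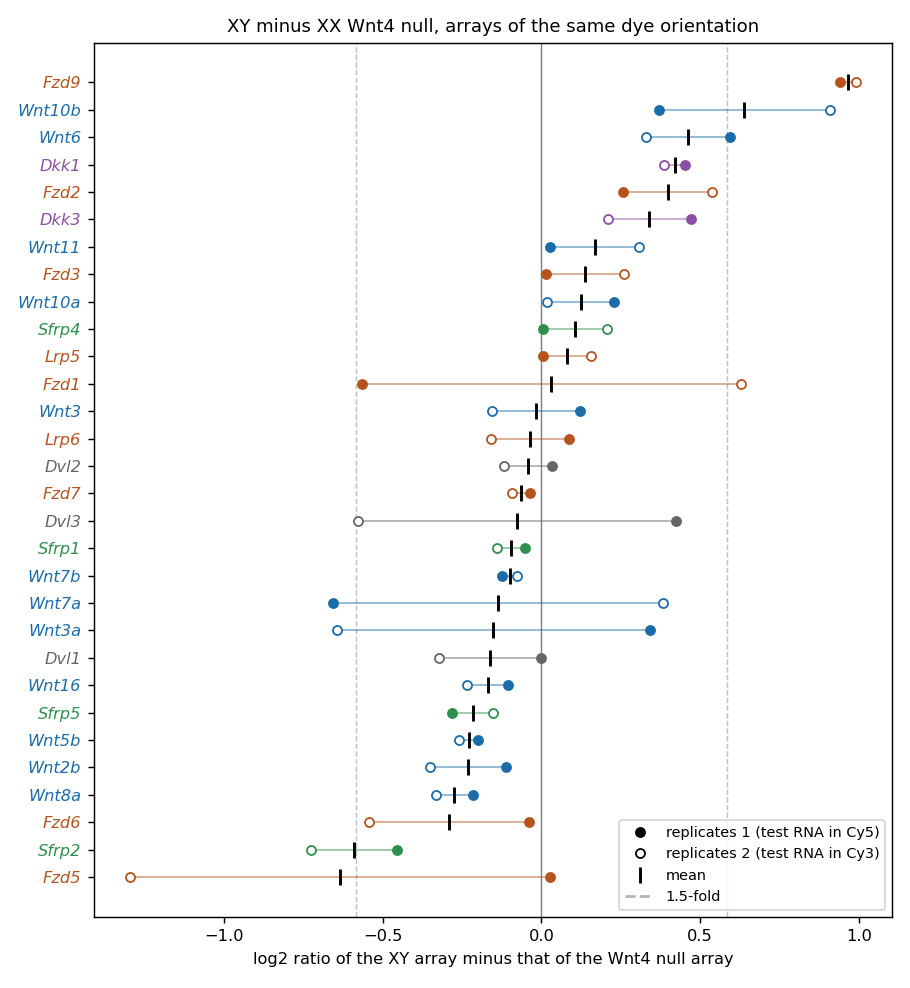
Difference of log2 ratios, XY minus Wnt4 -/- (horizontal axis), of each of the 30 genes, with filled points for the Cy5 arrays, open points for the Cy3 arrays, black bars for the mean and dashed lines at 1.5-fold. Fzd9 lies at 0.94 and 0.99, to the right of the 1.5-fold limit on both, and Fzd5 lies at 0.03 and -1.29.

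Other genes of the pathway were followed from a list of 69, of which 45 had values on all 4 arrays. The list was chosen with earlier results of these data known. In XY gonads 1 of the 45 was higher in limma with the dye term, Gpc3, a cell-surface proteoglycan, with 1.01 and 0.77 (mean 0.89 ± 0.17, adjusted p 0.0386), against 1.39% of all rows, and 0 were lower. In the mutant Gpc3 had 0.86 and 0.27 (mean 0.56 ± 0.42). In the mutant 1 of 45 was lower, the R-spondin receptor gene Lgr5, with -1.36 and -2.28 (mean -1.82 ± 0.65, adjusted p 0.0464 in limma with the dye term), against 0.0691% of all rows, and 0 were higher. Without the dye term the adjusted p of Lgr5 in limma was 0.968 there. In XY gonads Lgr5 had 0.30 and -0.08. Sostdc1, a secreted antagonist of Wnt and BMP, passed the rule of size in XY gonads with 2.21 and 2.28, but not limma with the dye term (adjusted p 0.0521); in the mutant it had 1.90 and 0.19 (mean 1.05 ± 1.21). Of the 22 genes of the beta-catenin arm inside the cell, 0 passed either in XY or in mutant gonads. Medians over the 45 genes were -0.026 and -0.065.

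**Figure D4:**
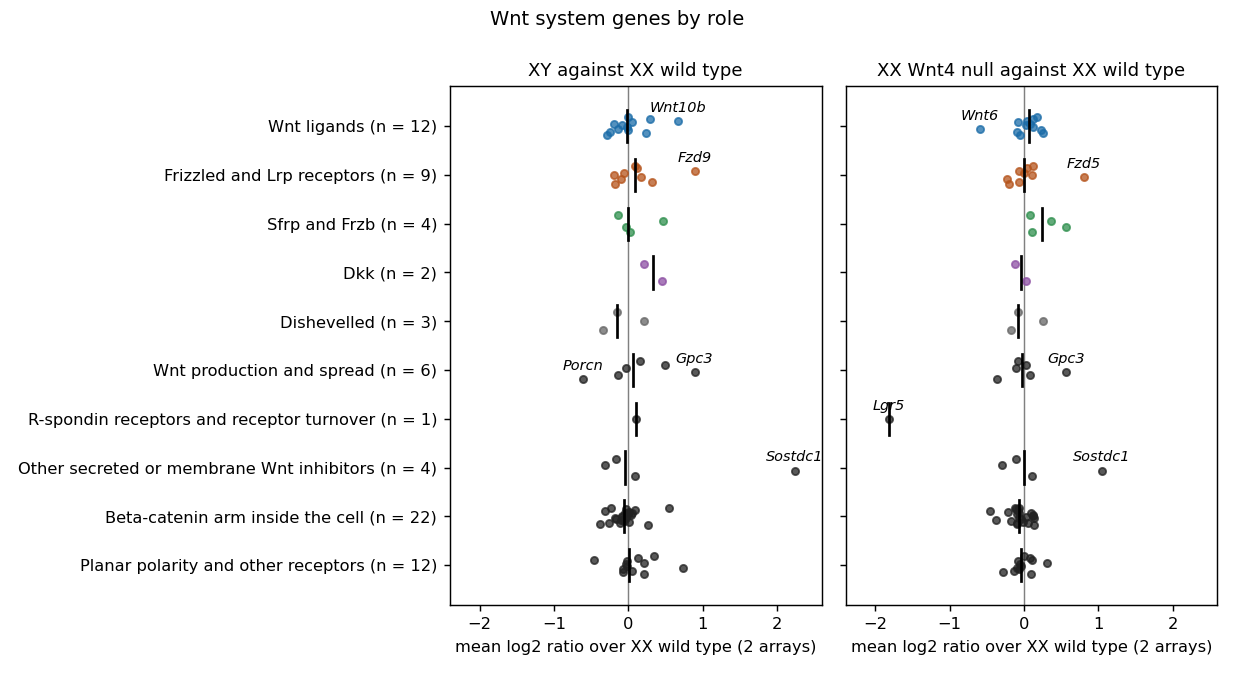
Mean log2 ratio over XX wild type (horizontal axis, 2 arrays) of each gene, by role, in the XY and Wnt4 -/- comparisons, with black bars at the median of each role. Most genes lie near 0, and Sostdc1 (XY) and Lgr5 (mutant) lie farthest away.

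The labelled tissue could not be judged from levels, since ratios hold none. Of 4 markers of testis supporting cells, 2 were higher in XY gonads in limma with the dye term, against 1.39% of all rows. Both measured markers of ovary supporting cells were lower (median -2.88), as were 2 of 4 germ cell markers, against 1.4%. Of mesonephric markers, with 3 of 6 measured, 1 was lower too. This was Krt18, with -0.90 and -0.78 (adjusted p 0.0322 in limma with the dye term). Pax8 had -0.22 and -0.00027 and Lhx1 had -0.19 and 0.76, and neither passed. Of coelomic epithelium markers, with 2 of 3 measured, 0 passed. In the mutant the medians were 0.04 for testis and -2.65 for ovary supporting cells, and 0 of the 26 markers measured passed limma with the dye term. By the rule of size 4 of the 26 passed in the mutant, against 1.07% of all rows: Tcf21 was higher, and Fst, Irx3 and the germ cell marker Stra8 (-0.70 and -1.39) were lower. These lists too were chosen with earlier results of these data known, so the counts only describe. The part of these cell types in the ratios of the Wnt genes was not tested.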

How the data were processed

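RNA of XY or XX Wnt4 -/- gonads was set against RNA of XX wild type gonads on 4 two-colour arrays. The authors deposited 1 log2 ratio of the dyes per spot; the log base was read from the values, and no source used here describes the normalization. Members and lists were chosen with earlier results of these data known. Spot numbers were matched to the platform annotation by exchanging rows with columns inside the printed blocks, an order inferred from the values, on which all gene names rest. The annotation gave 1 symbol to 14010 of 17664 spots, several to 13 and none to 3641. XY replicate 1 was negated, arrays were centred on their medians, and probes of a gene were averaged.

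All rows with 4 values (9757 genes and 1822 spots without 1 symbol) entered limma 3.58.1 (R 4.3.3, lmFit and eBayes), without a dye term as the main fit and with one as an alternative; the script was tested on simulated data. Calls had an adjusted p under 0.05, two-sided. The dye term equals a block by replicate number. Every member is named, and in full those past a test or the rule of size and the largest mean of each role; of the pathway list, those past the rule of size. Symbols and promoter windows came from RefSeq (GRCm38.p6).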

Additional observations from a re-analysis of the deposited data

How the results depend on the processing

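Direction, the dye term, centring, scaling and the fold limit each moved counts, and the number of arrays limits every p-value. With 4 arrays and no dye term 0 rows and 0 members were called in limma in any comparison. With the dye term (the same as a replicate block) 323 rows and 1 member were called in XY gonads and 24 rows in Wnt4 -/- gonads. Combinations of the dye term were chosen after seeing the data. With centring in printed blocks they called 650 rows and 4 members in XY gonads, 168 rows in the mutant and 27 rows for XY minus mutant. Without centring they called 433 rows and 1 member, and 61 rows in the mutant. With arrays scaled to a common spread they called 1084 rows and 4 members, 150 rows in the mutant, and 75 rows with 1 member (Fzd9) for the difference. With each probe apart they called 330 rows and 1 member, and 24 rows in the mutant. With the dye term and any other direction 0 rows were called. Leaving out 1 array without the dye term gave 0 to 22 rows called in XY gonads (1 without XY replicate 2, 22 without either mutant array), and moved Dvl2 in the mutant between -0.062 (without mutant replicate 2) and 0.58.

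By size, 322 rows and 0 members in XY gonads became 828 and 2 at a log2 limit of 0.322, 113 rows at 2-fold, and 205 and 2 with no array negated; centring in blocks gave 1 member and scaling 2. In the mutant 124 rows and 1 member became 357 and 2 at a log2 limit of 0.322, 27 and 0 at 2-fold, 0 members with block centring, and 654 and 4 read as Cy3 over Cy5 or Cy5 over Cy3 on both arrays. For the difference, 192 rows and 1 member became 801 and 5 at a log2 limit of 0.322, and 51 and 0 at 2-fold. There were 2 members with block centring, 69 rows with no array negated, and 557 and 2 in either dye reading. Member counts under block centring and scaling stand without their share of all rows and are no result about the members.

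Other directions turned signs by construction, with or without the dye term. With no array negated, XY means were -0.12 for Wnt10b, -0.23 for Sfrp4 and 0.34 for Dvl1, and the difference was -0.15 for Wnt10b. Read as Cy3 over Cy5, mutant means were -0.11 for Fzd5 and 0.33 for Wnt6, and the difference was -0.46 for Wnt6. Read as Cy5 over Cy3, XY means were -0.89 for Fzd9, -0.67 for Wnt10b, -0.47 for Sfrp4, -0.45 for Dkk1 and 0.34 for Dvl1. Mutant means were then -0.21 for Sfrp2, 0.072 for Dkk3 and -0.32 for Dvl2, and differences were -0.59 for Fzd9, -1.06 for Wnt10b, -0.17 for Dkk1 and 0.24 for Sfrp2. Apart from the direction and dye settings, the cause of each shift was not tested.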

Other observations

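Wnt8b, a ligand with no value on mutant replicate 1 and XY replicate 1, had 2.94 on mutant replicate 2 and -0.07 on XY replicate 2. Wnt2 had a value on 1 array, 0.34 on mutant replicate 2. Porcn, the enzyme that lipid-modifies Wnt ligands and a gene chosen after its values were seen, had -0.66 and -0.57 in XY gonads (mean -0.62 ± 0.064, adjusted p 0.0667 in limma with the dye term) and -0.28 and -0.45 in Wnt4 -/- gonads.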
